A study of Mus musculus with 6 samples.

Results

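The lysyl oxidase family of the mouse consists of 5 genes, Lox, Loxl1, Loxl2, Loxl3 and Loxl4, which were taken by name from the 30914 genes of an expression table of mouse hearts. All 5 were listed, and 4 of them passed the filter on low values and were among the 13089 genes tested. Hearts of wild-type male C57BL/6J mice, 8 weeks old at the start, were compared between 3 mice of the Ang II group and 3 mice of the Ang II + Tec group. Mice of both groups received angiotensin II (Ang II), a hormone that raises blood pressure and enlarges the heart, at 1 μg/kg/min for 4 weeks from a pump under the skin. Only the Ang II + Tec group also received tectochrysin (Tec), a plant flavonoid, at 5 mg/kg in the last 2 weeks. No library from mice without Ang II was analysed here, so a level before Ang II cannot be given. The comparison asks whether Tec, given on top of Ang II, went with another level of these genes.

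Lysyl oxidases are copper-dependent enzymes that are secreted by fibroblasts and other cells that build matrix. They oxidise the amino group of lysine residues in collagen and elastin to an aldehyde, and these aldehydes condense into the crosslinks that make the fibres insoluble and stiff. Lox and Loxl1 are made as proenzymes whose propeptide is cut off outside the cell, whereas Loxl2, Loxl3 and Loxl4 carry scavenger receptor cysteine-rich domains in its place. In the heart the family is known for its part in scar formation and in the stiffening of the fibrotic ventricle.

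What the family shares in sequence is its catalytic end, with a histidine-rich motif that binds copper. The motif (tryptophan, any residue, tryptophan, histidine, any, cysteine, histidine, any, histidine, tyrosine, histidine) was found once in the coding sequence of each of the 5 genes in GENCODE release M21 on GRCm38. The 11 codons are shown for 4 genes, because they show how alike the active site is and how well reads can still tell the genes apart. Capitals mark the 13 of 33 bases at which the 4 genes are not all the same, and 7 of these are the last base of a codon.
Loxl1: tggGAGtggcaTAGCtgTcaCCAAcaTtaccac
Loxl2: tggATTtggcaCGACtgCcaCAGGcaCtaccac
Loxl3: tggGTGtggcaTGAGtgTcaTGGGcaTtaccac
Loxl4: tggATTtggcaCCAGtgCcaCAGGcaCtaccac
Each stretch is coding sequence joined from 2 neighbouring exons, given in the direction of transcription. It lies at chr9:58293720-58294381 on the minus strand for Loxl1 (exons 3 and 4) and at chr14:69682316-69689037 on the plus strand for Loxl2 (exons 10 and 11). For Loxl3 it lies at chr6:83049995-83050125 on the plus strand (exons 10 and 11) and for Loxl4 at chr19:42598807-42599899 on the minus strand (exons 11 and 12). Loxl2 and Loxl4 differed at 2 of the 33 bases, Loxl1 and Loxl4 at 12, and the other pairs at 8 to 11. The coding sequences held 411 codons for Lox, 607 for Loxl1, 776 for Loxl2, 754 for Loxl3 and 758 for Loxl4. The longest run of bases shared by the transcripts of any pair was 32, between Lox and Loxl1, and it was 11 to 28 in the other pairs, which is short beside these coding sequences.

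Levels are given as FPKM, the fragments of a gene relative to its length and to all mapped fragments, as the authors deposited them. FPKM are corrected for length and can be compared between genes. Before the members are described, the libraries have to be, because they did not sort by group. A principal component analysis of the tested genes put 68.7% of the variance on its first axis. Scores on this axis were -31.2 and -46.1 for Ang II replicates 1 and 2, 19.2 for Ang II replicate 3 and 2.39 to 28.6 for the Ang II + Tec libraries. In 9414 of the tested genes (71.9%) Ang II replicate 3 was the lowest Ang II library, and in 8082 (61.7%) it was also closer to the Ang II + Tec mean than to the other Ang II libraries. All 5 members were of the latter kind. Shares, the family sum, the comparisons with collagens and fibroblast markers, and most single genes of the lists are given with all 6 libraries only. The log2 differences of the tested members and the calls of the pathway lists are therefore given with and without Ang II replicate 3. The labels give no reason to leave it out, so the fit with all 6 libraries is the main one. It was set apart for its likeness to the Ang II + Tec libraries, so leaving it out tends to widen the differences. Adjusted p values and calls without Ang II replicate 3 are therefore descriptive and are no independent test of Tec. Cardiomyocyte markers such as Actc1 were abundant in every library, but the summed FPKM of 4 atrial markers (Myl7, Sln, Myl4 and Nppa) was 6204, 10253 and 256 in the Ang II libraries and 906, 5032 and 128 in the Ang II + Tec libraries, so the libraries differed in their atrial transcripts. Mitochondrial transcripts made up 41.3% and 40.1% of the summed FPKM in Ang II replicates 1 and 2 and 48.9% to 52.5% in the other 4 libraries. A smaller mitochondrial share raises the FPKM of all other genes of a library. Relative depth, read from the spacing of low values, ranged from 0.902 to 1.23.

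Lox, the founding member and the main enzyme for fibrillar collagen, lies on chromosome 18 from 52516067 to 52529867 on the minus strand (ENSMUSG00000024529). Its FPKM was 12.24, 34.25 and 1.29 in Ang II replicates 1, 2 and 3 and 0.72, 1.69 and 0.74 with Ang II + Tec. Replicates 1 and 2 of the Ang II group stood above all other libraries, the third lay below the highest Ang II + Tec library, and the groups overlapped. The mean was 15.9 ± 16.8 (SD, n = 3) with Ang II alone and 1.05 ± 0.554 (SD, n = 3) with Ang II + Tec, a ratio of 15.2. On the scale of log2(FPKM + 1) the difference, Ang II + Tec minus Ang II, was -2.35 (standard error 0.88, 95% interval -4.40 to -0.30). The adjusted p was 0.240 (limma with Benjamini-Hochberg adjustment), so the difference did not pass the threshold of 0.05. Without Ang II replicate 3 the difference was -3.43 (standard error 0.39, limma adjusted p 0.00291). No member varied more between the Ang II mice: the highest of the 3 was 26.6 times the lowest, and Ang II replicates 1 and 2 averaged 18.02 times replicate 3.

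Loxl1, the member tied most closely to elastic fibres, lies on chromosome 9 from 58287738 to 58313186 on the minus strand (ENSMUSG00000032334). It had the highest level of the family in every library, with 29.50, 41.22 and 6.90 FPKM with Ang II alone and 6.19, 7.25 and 4.73 with Ang II + Tec. Again the first and second Ang II replicates were high, and the third was below the second Ang II + Tec replicate. The means were 25.9 ± 17.4 and 6.06 ± 1.27 FPKM (SD, n = 3), a ratio of 4.27. The log2 difference was -1.63 (standard error 0.57, 95% interval -2.97 to -0.30, limma adjusted p 0.231), and without Ang II replicate 3 it was -2.36 (standard error 0.19, limma adjusted p 0.00112).

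Loxl2, which crosslinks the type IV collagen of basement membranes among other substrates, lies on chromosome 14 from 69609068 to 69695834 on the plus strand (ENSMUSG00000034205). The Ang II libraries had 9.48, 12.74 and 2.65 FPKM and the Ang II + Tec libraries 2.56, 1.75 and 1.48. It was the one member whose groups did not overlap, by a margin of 2.65 against 2.56. Groups did not overlap, with Ang II + Tec lower, in 18.9% of all tested genes (21.8% in either direction), beside 1 of the 4 tested members. The means were 8.29 ± 5.15 and 1.93 ± 0.562 FPKM (SD, n = 3), a ratio of 4.30, and the log2 difference was -1.48 (standard error 0.46, 95% interval -2.55 to -0.40, limma adjusted p 0.221). Without Ang II replicate 3 it was -2.05 (standard error 0.19, limma adjusted p 0.00164).

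Loxl3, a paralogue with the same domain layout as Loxl2, lies on chromosome 6 from 83034173 to 83052562 on the plus strand (ENSMUSG00000000693). Its FPKM was 9.69, 14.30 and 1.85 with Ang II alone and 1.00, 2.00 and 1.08 with Ang II + Tec. Here too only the third Ang II replicate lay within the range of the Ang II + Tec libraries. The means were 8.61 ± 6.29 and 1.36 ± 0.556 FPKM (SD, n = 3), a ratio of 6.33. The log2 difference was -1.74 (standard error 0.57, 95% interval -3.08 to -0.40, limma adjusted p 0.228), and without Ang II replicate 3 it was -2.46 (standard error 0.22, limma adjusted p 0.00156).

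Loxl4, the remaining paralogue of this kind, lies on chromosome 19 from 42593982 to 42612813 on the minus strand (ENSMUSG00000025185) and was the lowest member in every library. It had 0.82, 0.57 and 0.13 FPKM with Ang II alone and 0.18, 0.17 and 0.17 with Ang II + Tec, and reached the minimum of 0.5 FPKM in 2 libraries where the filter asked for 3. As with the other members, Ang II replicates 1 and 2 were the 2 highest libraries, but here replicate 3 was the lowest of all 6. If 1 spacing unit of the low values is 1 fragment, Loxl4 rested on about 15.5 to 97.1 fragments per library, which is an estimate. The difference in log2(FPKM + 1) was -0.33, with p = 0.4 in an exact two-sided permutation test, so it was not detectable with these libraries. The smallest p that this test can give with 3 mice against 3 is 0.1.

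**Figure D1:**
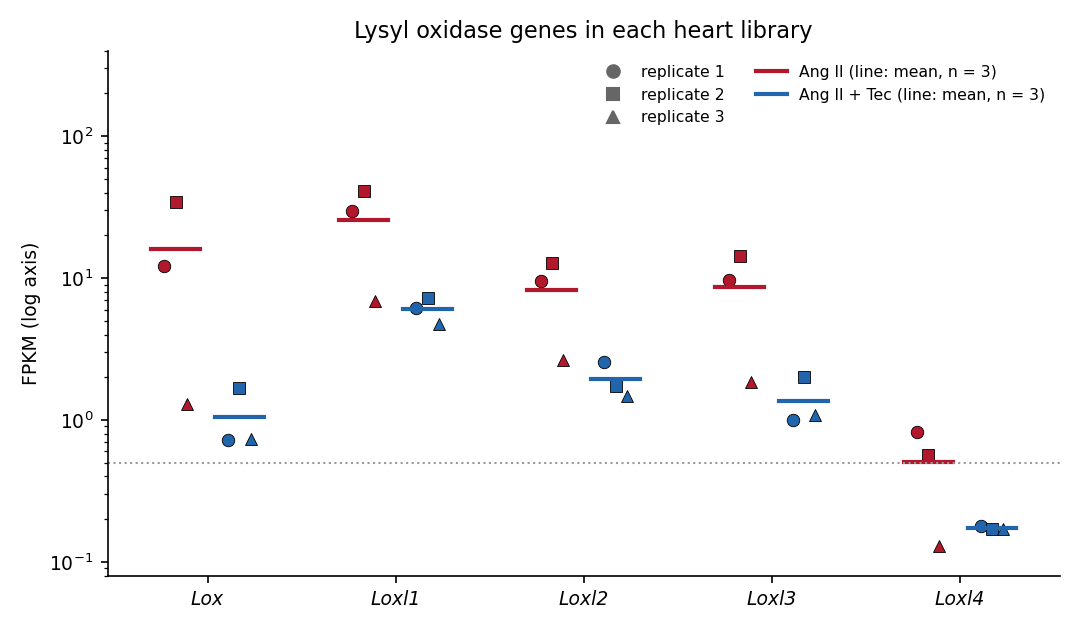
FPKM of the 5 lysyl oxidase genes (log axis) in the 3 Ang II and the 3 Ang II + Tec libraries; each symbol is 1 mouse, its shape the replicate number, and the dotted line marks the 0.5 FPKM of the filter. For Lox, Loxl1, Loxl2 and Loxl3 the third Ang II replicate lies at the Ang II + Tec values, and the other Ang II replicates lie above them.

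Over the family, none of the 4 tested members passed the threshold for a call (adjusted p under 0.05 and an absolute log2 difference of at least 1) with all 6 libraries. Calls were rare throughout: 0.16% of the tested genes were called in either direction and 0.0764% as lower with Tec. At an unadjusted p under 0.05 all 4 tested members were lower with Tec, as were 16.5% of all tested genes. In limma these unadjusted values were 0.0302 for Lox, 0.0229 for Loxl1, 0.0138 for Loxl2 and 0.0179 for Loxl3. Without Ang II replicate 3 the 4 members were called as lower, beside 3.76% of the tested genes. Among the fits that left out 1 library, this was the one that called any member. By the size of the difference the members lay near the low end of all tested genes. Only 0.0840% of the genes had a lower log2 difference than Lox, and the share was 0.428% for Loxl1, 0.535% for Loxl2 and 0.351% for Loxl3. Their spread was as far out. The SD of log2(FPKM + 1) between the Ang II mice was above that of 99.8% of tested genes for Lox and of 98.5% to 99.2% for Loxl1, Loxl2 and Loxl3, and between the Ang II + Tec mice it was above that of 86.6% to 94.2%.

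**Figure D2:**
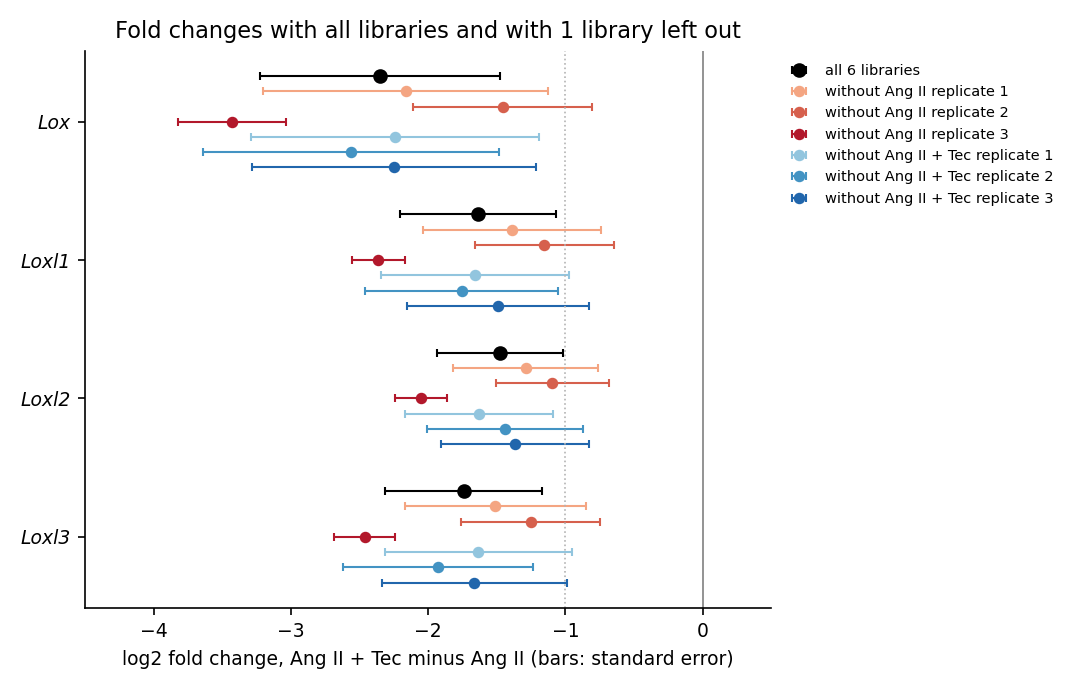
Log2 fold change (x axis, Ang II + Tec minus Ang II on log2(FPKM + 1), limma; bars, standard error) of the 4 tested members with all 6 libraries and with each library left out in turn; the dotted line marks -1. The estimates run from -2.35 to -1.48 with all libraries and from -3.43 to -2.05 without Ang II replicate 3, where the bars are shortest.

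Summed over the 5 genes, the family amounted to 61.73, 103.08 and 12.82 FPKM in the Ang II libraries and 10.65, 12.86 and 8.20 in the Ang II + Tec libraries, with means of 59.2 ± 45.2 and 10.6 ± 2.33 (SD, n = 3). Loxl1 ranked first and Loxl4 last in all 6 libraries, while the order between them moved. Lox was second in Ang II replicates 1 and 2 and behind Loxl2 and Loxl3 in the other 4 libraries. Loxl2 and Loxl3 lay close to each other, at a ratio of Loxl3 to Loxl2 between 0.391 and 1.14, and changed places between libraries, so their order was not settled. The share of Lox in the family sum was 19.8%, 33.2% and 10.1% with Ang II alone and 6.76%, 13.1% and 9.02% with Ang II + Tec (exact two-sided permutation p = 0.2, adjusted over the 5 members 0.333). That of Loxl1 was 47.8%, 40.0% and 53.8% against 58.1%, 56.4% and 57.7%. The Loxl1 shares did not overlap, at 47.2 ± 6.94% and 57.4 ± 0.908% (SD, n = 3), and reached the smallest p of the exact permutation test, 0.1 (adjusted 0.333). Depth is known only as a relative value, so no counting interval is given for these shares.

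**Figure D3:**
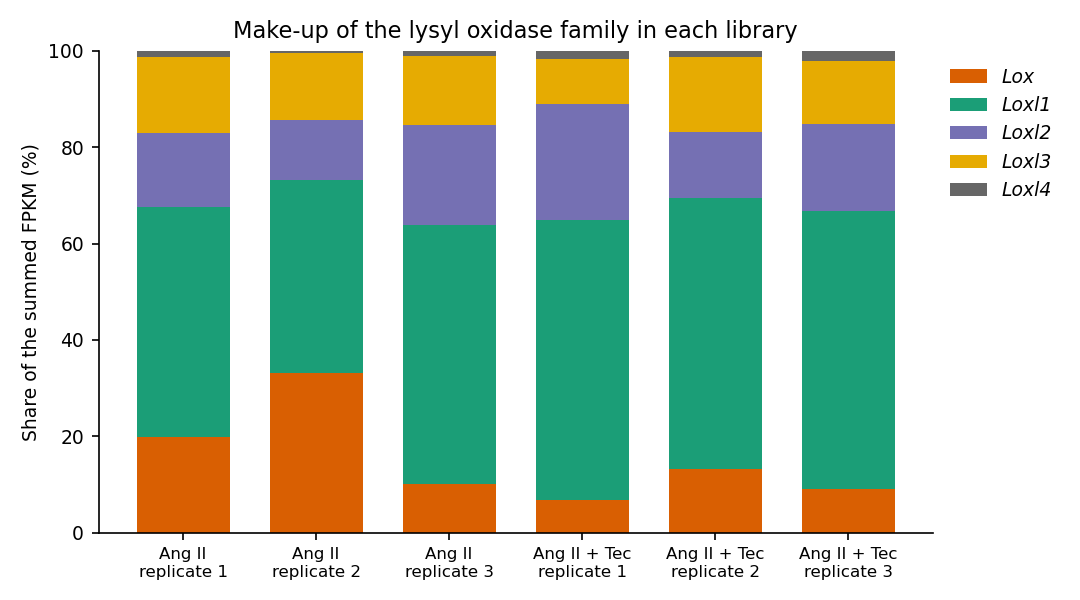
Share of each lysyl oxidase gene in the summed FPKM of the family (percent, stacked bars, 1 bar per library). The Loxl1 part is the largest in every library, and the Lox part is largest in Ang II replicates 1 and 2, at 19.8% and 33.2%.

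The members were then compared with each other within each library, so that a shift common to all genes of a library largely drops out. For values near or below 1 FPKM, as in Loxl4, it drops out only in part, because 1 is added to each FPKM. Across the 10 pairs, no difference between the groups passed the exact permutation test after adjustment (adjusted p 0.5 to 1). Lox minus Loxl2, in log2(FPKM + 1), was 0.34 ± 1.02 with Ang II alone and -0.53 ± 0.509 with Ang II + Tec (SD, n = 3), a difference of -0.87 at an exact permutation p of 0.3. Without Ang II replicate 3 this was -1.38, with an exact permutation p of 0.1, the smallest for 2 against 3 as well. For Lox minus Loxl1 the groups differed by -0.72 (exact permutation p = 0.3) and for Lox minus Loxl3 by -0.61 (exact permutation p = 0.4). Loxl1 and Loxl3 kept closest together. Their difference was 1.48 ± 0.0261 with Ang II alone and 1.59 ± 0.222 with Ang II + Tec (SD, n = 3), and the root mean square difference of their profiles, each centred on its mean over the 6 libraries, was 0.140. That measure was 0.243 for Loxl1 and Loxl2, 0.344 for Loxl2 and Loxl3, and 0.537 to 0.788 for Lox with these 3 genes. Even between Ang II replicates 1 and 2 Lox differed more than its relatives. Replicate 2 was 2.80 times replicate 1 for Lox, 1.40 times for Loxl1, 1.34 times for Loxl2 and 1.48 times for Loxl3, and 0.695 times for Loxl4. Of the genes that build the substrates, elastin (Eln) had a ratio of 5.09, Col1a1 of 1.21 and Col3a1 of 1.49.

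The substrates come next. Among the 9 fibrillar collagen chains, which assemble into the fibres that lysyl oxidases crosslink, 7 were tested, with a median log2 difference of -2.23. By comparison, the median was -1.69 for the 4 tested members and -0.17 for all tested genes, of which 80% were below 0. None of the 7 chains was called, 6 were lower at an unadjusted p under 0.05, and 5 were called without Ang II replicate 3. Of all tested genes, 16.5% were lower at an unadjusted p under 0.05 and 3.76% were called as lower without that replicate. These shares are to be read beside the counts of each list below. Col3a1, a chain of type III collagen, had 139.51, 207.26 and 18.85 FPKM with Ang II alone and 9.71, 16.70 and 9.63 with Ang II + Tec, a log2 difference of -2.72 (standard error 0.80, limma adjusted p 0.220). The type I chains Col1a1 and Col1a2 had differences of -2.75 and -2.33 (standard errors 0.90 and 0.81, limma adjusted p 0.228 and 0.231). These collagens had the members' profile, with high values in Ang II replicates 1 and 2 and low ones in the other 4 libraries.

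Elastic fibre genes, the substrates of Loxl1 and their scaffold, ranged from little to large differences. Of 14 genes, 13 were tested, with log2 differences from -2.10 to -0.04 and a median of -1.13. Of these, 5 were lower at an unadjusted p under 0.05 and 10 were called without Ang II replicate 3. The microfibril protein Mfap4 was at 72.48, 115.92 and 10.28 FPKM with Ang II alone and at 8.28, 24.06 and 8.04 with Ang II + Tec, a log2 difference of -1.84 (standard error 0.85, limma adjusted p 0.288). Fbln1, which encodes the matrix protein fibulin-1, differed by -0.61 (standard error 0.44, limma adjusted p 0.428). Ltbp4, which holds latent TGF-β and helps elastic fibres assemble, differed by -0.09 (standard error 0.25, limma adjusted p 0.840), a difference that turned positive when the libraries were rescaled.

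**Figure D4:**
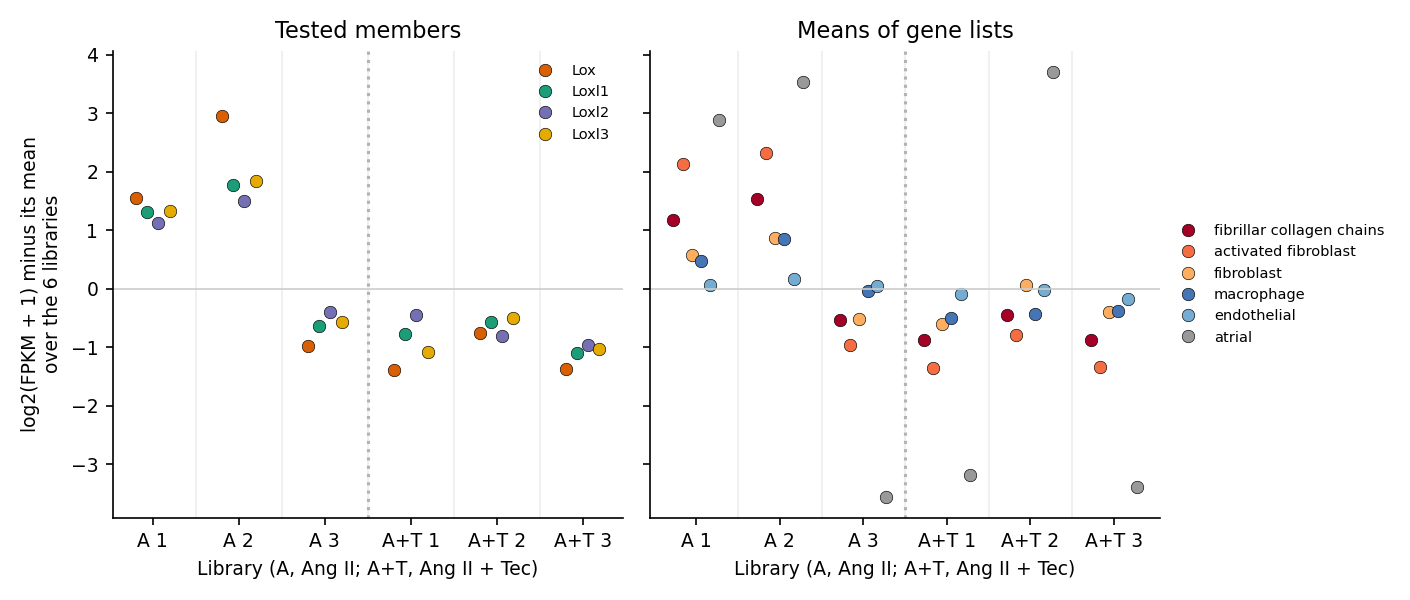
Log2(FPKM + 1) minus its mean over the 6 libraries, for the 4 tested members (left) and for the mean of the fibrillar collagens and of 5 lists of cell type markers (right); each point is 1 library, with A for Ang II and A+T for Ang II + Tec. The members, the collagens and the activated fibroblast markers are above 0 in Ang II replicates 1 and 2 and below 0 in the other 4 libraries, whereas the atrial markers are also above 0 in the second Ang II + Tec replicate.

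Other proteins act before and beside lysyl oxidases. Among 8 proteases and enhancers that remove the propeptides of Lox and of procollagen, 5 were tested (median -0.65, 2 lower at an unadjusted p under 0.05, and 2 called without Ang II replicate 3). Bmp1, the protease that activates Lox, had a log2 difference of -0.65 (standard error 0.30, limma adjusted p 0.288), its enhancer Pcolce of -1.25 (standard error 0.41, limma adjusted p 0.228) and Pcolce2 of -0.42 (standard error 0.25, limma adjusted p 0.363). Extracellular proteins that bind lysyl oxidases or guide them to collagen had a median of -2.03 over 5 tested of 6 genes, with 3 lower at an unadjusted p under 0.05 and 5 called without Ang II replicate 3. Sparc, a collagen-binding matrix protein, had 280.89, 389.47 and 84.27 FPKM against 59.40, 70.93 and 50.58, without overlap, and a log2 difference of -1.80 (standard error 0.51, limma adjusted p 0.218). Periostin (Postn), a protein of active scars that binds Bmp1, differed by -3.02 (standard error 0.96, limma adjusted p 0.224), and Fmod, a proteoglycan on collagen fibrils, by -2.03 (standard error 1.29, limma adjusted p 0.387).

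Lysyl hydroxylases and their partners modify the same lysine residues inside the cell before the collagen is secreted. All 8 were tested, with a median of -0.60, 4 lower at an unadjusted p under 0.05 and 3 called without Ang II replicate 3. P3h4, a component of the hydroxylase complex, had 17.28, 19.27 and 17.04 FPKM with Ang II alone and 8.82, 14.73 and 12.30 with Ang II + Tec (log2 difference -0.57, standard error 0.18, limma adjusted p 0.223). In P3h4 the third Ang II replicate lay with its group, unlike in the members. The glycosyltransferase Colgalt1 and the hydroxylase Plod1 differed by -0.50 and -0.32 (standard errors 0.23 and 0.13, limma adjusted p 0.284 and 0.257).

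Copper supply, which all lysyl oxidases need, was represented by 9 transport genes. The 7 that were tested had a median of -0.23, near that of all genes, with 3 lower at an unadjusted p under 0.05 and 0 called without Ang II replicate 3. The copper chaperone Atox1 had a log2 difference of 0.06 (standard error 0.10, limma adjusted p 0.726), the trafficking factor Commd1 of -0.40 (standard error 0.13, limma adjusted p 0.226) and the importer Slc31a1 of -0.50 (standard error 0.16, limma adjusted p 0.223). The other copper amine oxidases, which are unrelated in sequence and do not crosslink matrix, were Aoc3 at 0.03 (standard error 0.34, limma adjusted p 0.964) and Aoc2 at -0.03 (standard error 0.11, limma adjusted p 0.857), with a direction that changed between settings in both. Of the 11 regulators of lysyl oxidase transcription, all of which were tested (median -0.39), 1 was lower at an unadjusted p under 0.05 and 4 were called without Ang II replicate 3. Ccn2, a matricellular target of TGF-β, had 154.56, 457.44 and 17.89 FPKM against 48.36, 133.72 and 34.22 and a log2 difference of -0.84 (standard error 1.09, limma adjusted p 0.650), which became 0.19 without Ang II replicate 2. The transcription factors Srf and Hif1a differed by -0.27 and -0.29 (standard errors 0.19 and 0.24, limma adjusted p 0.419 and 0.484). Over the 8 lists together, 0 of 58 tested genes were called, 24 were lower and 0 higher at an unadjusted p under 0.05, and 29 were called without Ang II replicate 3. The shares over all tested genes were 16.5% lower at an unadjusted p under 0.05 and 3.76% called as lower without that replicate.

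To see whether the enzymes and their substrates differed by unequal amounts, each member was set against the mean of Col1a1 and Col3a1 within the same library. For Loxl1 this value was -1.83, -1.78 and -0.68 with Ang II alone and -0.05, -0.62 and -0.32 with Ang II + Tec, so that Loxl1 stood higher beside the collagens in every Ang II + Tec library. The difference between the groups was 1.10 on the log2 scale, and 0.99 for Loxl3 and 2.40 for Loxl4, each without overlap and each at the smallest exact permutation p of 0.1 (adjusted over 10 comparisons 0.167). For Loxl2 it was 1.26 (exact permutation p = 0.2). For Lox the difference of 0.38 (exact permutation p = 0.3) lay within the spread and became -0.10 with a pseudocount of 0.1. The same pseudocount gave 1.11 for Loxl1, 1.05 for Loxl2, 0.64 for Loxl3 and 1.93 for Loxl4. Loxl4 missed the filter on low values, and its own log2(FPKM + 1) differed by only -0.33. Its value of 2.40 thus mostly mirrors the difference of the collagens. Ang II replicate 3 set narrow margins, with -0.68 against -0.62 for Loxl1, -2.15 against -2.08 for Loxl3 and -3.49 against -3.44 for Loxl4. Col1a1 and Col3a1 differed by -2.75 and -2.72, and the median of all tested genes was -0.17. A gene that differed little therefore also stands higher beside them. The share of all tested genes without overlap on this measure was not computed.

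Set against 6 general fibroblast markers (Pdgfra, Tcf21, Dcn, Lum, Dpt and Gsn), a comparison chosen after the values had been seen, the 4 tested members had negative differences. Lox was at -2.20, -1.08 and -3.63 with Ang II alone and at -3.96, -3.99 and -4.14 with Ang II + Tec. All 3 Ang II + Tec libraries lay below the lowest Ang II library, a difference of -1.73 (exact permutation p = 0.1, adjusted 0.167). The differences were -1.01 for Loxl1 and -1.12 for Loxl3, both without overlap at the same p, and -0.86 for Loxl2 (exact permutation p = 0.2). For Loxl4 the value was 0.29 (exact permutation p = 0.5), or -0.27 with a pseudocount of 0.1. Of the 6 markers, 5 had log2 differences below 0, whereas Gsn had 0.56. Their median was -0.68, while that of the activated fibroblast markers was -2.67, and the members were not set against the latter. These differences therefore hold for the chosen list only. The share of all tested genes without overlap on this measure was not computed.

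**Figure D5:**
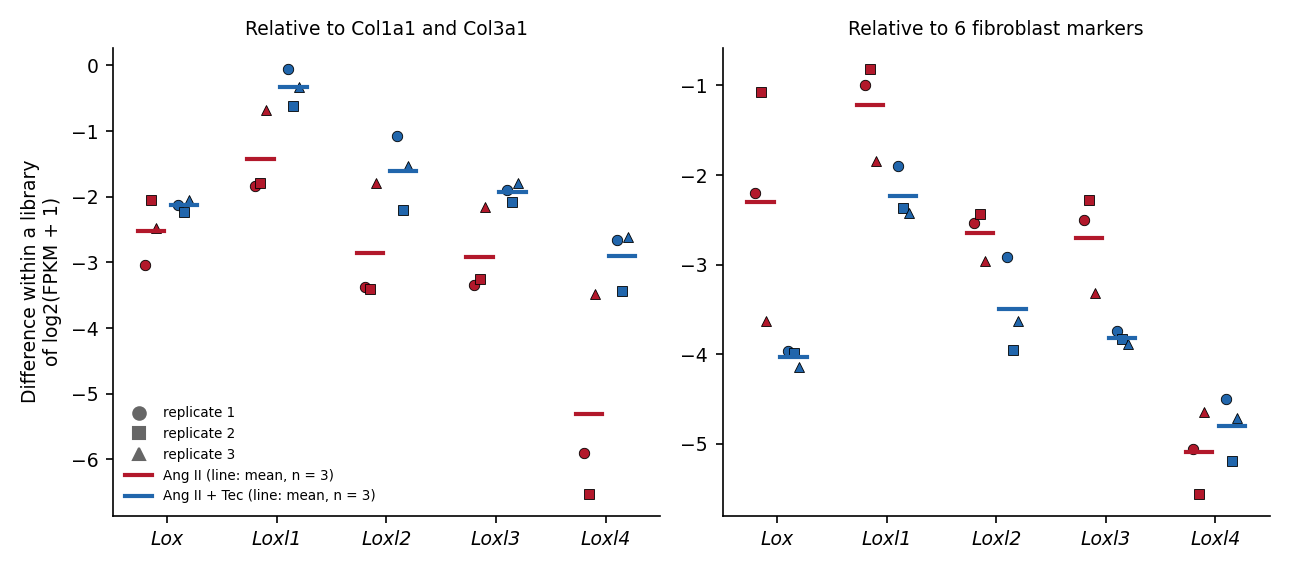
Log2(FPKM + 1) of each member minus the mean of Col1a1 and Col3a1 (left) or of 6 fibroblast markers (right) in the same library; each symbol is 1 mouse, lines are group means (n = 3). Relative to the collagens Loxl1, Loxl3 and Loxl4 were higher in all Ang II + Tec libraries, and relative to the fibroblast markers Lox, Loxl1 and Loxl3 were lower in all of them. Loxl4 missed the filter on low values, and its points on the left mostly mirror the collagens. Beside the collagens the margins to Ang II replicate 3 were narrow. The share of all tested genes without overlap was not computed for either reference.

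The cell type markers show which transcripts moved beside the family. In whole hearts, fewer cells of a type and less RNA per cell cannot be told apart. The 7 markers of activated fibroblasts, the cells that lay down scar, had summed FPKM of 366, 419 and 27.9 with Ang II alone and 19.3, 31.8 and 16.7 with Ang II + Tec. Their median log2 difference was -2.67, and they had the members' profile. Of the 7, 6 were lower at an unadjusted p under 0.05, beside 16.5% of all tested genes. Without Ang II replicate 3, 6 were called, beside 3.76% of all tested genes called as lower. The 6 general fibroblast markers summed to 806, 862 and 399 against 456, 858 and 554 (median -0.68), and their most abundant gene, Gsn, had a log2 difference of 0.56 (standard error 0.27, limma adjusted p 0.296). The high sum of the second Ang II + Tec library came from Gsn, at 605.64 FPKM against 289.26 in Ang II replicate 2. The other 5 markers were lower there than in that replicate, and the mean of log2(FPKM + 1) over the list was 5.42 against 6.22. Macrophage markers summed to 168, 215 and 121 against 68.9, 77.4 and 84.0, and all 6 were lower at an unadjusted p under 0.05, as were 16.5% of all tested genes. Among the macrophage markers C1qb, a complement gene, had a log2 difference of -1.14 (standard error 0.21, limma adjusted p 0.154). The macrophage sums did not overlap between the groups. Gene by gene, 5 of the 6 macrophage markers did not overlap, with Ang II + Tec lower, beside 18.9% of all tested genes. Adgre1 did overlap, at 2.63 FPKM in Ang II replicate 3 against 2.68 in Ang II + Tec replicate 1. Of the members, Lox, Loxl1, Loxl3 and Loxl4 overlapped and Loxl2 did not.

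Endothelial markers summed to 99.2, 106 and 98.7 FPKM against 92.2, 94.0 and 85.5, and pericyte markers to 136 to 161 in all libraries. Cardiomyocyte markers ranged from 7282 to 8965. Smooth muscle markers were at 154, 336 and 112 against 66.0, 258 and 94.7, red blood cell markers at 396, 625 and 152 against 324, 232 and 93.0, and mesothelial and adipocyte markers were highest in the second Ang II + Tec library, at 17.02 and 43.5. Skeletal muscle markers were at 7.51, 42.98 and 0.52 against 5.55, 4.49 and 5.86, with Myh1 at 0.02 or less in every library. Atrial transcripts were abundant in Ang II replicates 1 and 2, where the members were high, and in the second Ang II + Tec library, where the members were low. Within its group, however, that Ang II + Tec library was the highest for Lox, Loxl1 and Loxl3, at 1.69, 7.25 and 2.00 FPKM. For Loxl2 and Loxl4 it was not. In the Ang II group Lox, Loxl1, Loxl2 and Loxl3 had the order of the atrial sums, and Loxl4 did not. The most abundant gene of each of these lists was tested as well. The endothelial gene Egfl7 had a log2 difference of -0.30 (standard error 0.11, limma adjusted p 0.241), the pericyte gene Rgs5 of -0.16 (standard error 0.12, limma adjusted p 0.450) and the cardiac actin gene Actc1 of -0.34 (standard error 0.17, limma adjusted p 0.308). The cardiomyocyte list was split, with 3 of its 6 tested genes below 0 and a median log2 difference of 0.03. For the smooth muscle actin gene Acta2 the log2 difference was -0.50 (standard error 0.52, limma adjusted p 0.571), for the globin gene Hbb-bs -0.89 (standard error 0.60, limma adjusted p 0.411) and for the troponin gene Tnnt3 -1.77 (standard error 1.09, limma adjusted p 0.378). Mylpf, the other of the 2 tested skeletal muscle genes, went the other way (1.80, standard error 0.15, limma adjusted p 0.0142). Nppa had -1.69 (standard error 1.59, limma adjusted p 0.532), the mesothelial gene Upk3b 0.67 (standard error 0.73, limma adjusted p 0.589) and the adipocyte gene Cidec 0.63 (standard error 1.08, limma adjusted p 0.736). None of these most abundant genes passed the threshold, and the signs of Rgs5, Upk3b and Cidec turned under some alternatives. The part of these markers in the members' values was not tested.

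For each tested member, the genes whose centred profile was most like its own were sought among 11047 genes with a mean of at least 1 FPKM. Over 6 libraries that mainly split into Ang II replicates 1 and 2 and the other 4, such likeness is a description. Lox was closest to Col5a2, a chain of type V collagen (root mean square difference 0.171), to Serpina3n, a secreted protease inhibitor (0.173), and to Fn1, fibronectin (0.257). Loxl1 was closest to Col5a1, another chain of type V collagen (0.0641), to Srpx2 (0.104) and to Sparc (0.114). Loxl3 was closest to Lum, a proteoglycan of collagen fibrils (0.0551), to the microfibril gene Mfap5 (0.104) and to Adamts2, a procollagen protease (0.109). Loxl2 had as nearest genes the pseudogene Gm11382 (0.0746), the membrane protein gene Emp1 (0.131) and C1qtnf6 (0.191). Within the family, Loxl3 ranked 7 for Loxl1 and Loxl1 ranked 11 for Loxl3, whereas the nearest member to Lox, Loxl3, ranked 31.

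Genes that overlap the members bear on what was counted, since the sources used here do not say whether reads were assigned by strand. The antisense gene Gm41724 overlaps 1207 bases of Lox and was at 0.18 and 0.21 FPKM in Ang II replicates 1 and 2 and listed at 0 in the other 4 libraries. Gm27177, antisense to 35685 bases of the Loxl2 locus, was at 0.03 to 0.33 FPKM. Htra2, a mitochondrial protease gene that overlaps the end of Loxl3 by 1297 bases on the opposite strand, had a log2 difference of -0.04 (standard error 0.14, limma adjusted p 0.873) and so did not share the profile of Loxl3. Dok1, an adaptor protein gene, starts 701 bases before Loxl3 and runs the other way. It had 8.43, 10.92 and 1.20 FPKM with Ang II alone and 1.42, 2.80 and 1.21 with Ang II + Tec, with a log2 difference of -1.20 (standard error 0.60, limma adjusted p 0.309). Its high libraries were the same as those of Loxl3. No other gene of the expression table lay within 1000 bases of Loxl1 or Loxl4.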

How the data were processed

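Poly(A) RNA from 6 hearts was sequenced, 1 library per mouse. The authors used Cutadapt for trimming and FastQC for quality, and deposited FPKM per gene, rounded to 2 decimals. The submitters' processing notes list Bowtie 0.12.2, HISAT2 2.0 and StringTie 1.3.0 without their roles, and the build mm8. The table's coordinates of the 5 members were nevertheless those of GENCODE M21 on GRCm38, which was used here. The labels name a NovaSeq instrument and the paper a HiSeq. How reads were assigned by strand is not given in the sources used here. FPKM keep no read totals, so the error used is the spread between mice.

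Genes that reached 0.5 FPKM in 3 or more of the 6 libraries were tested on log2(FPKM + 1), a scale that understates the changes of low genes, with limma 3.58.1 in R 4.3.3 (lmFit, eBayes with trend) and Benjamini-Hochberg adjustment over 13089 genes. A call needs an adjusted p under 0.05 and an absolute log2 difference of at least 1. Single values were compared with exact two-sided permutation tests over samples, enumerated in Python 3.11.15 with numpy 2.4.6. The spacing of low values was read with scipy 1.17.1. Library sums, members and lists were handled with pandas 2.3.3 and drawn with matplotlib 3.10.9. The fit was tested on simulated data. Same-numbered libraries of the groups were not treated as pairs. The 3 most abundant genes of each list, the most abundant gene of each marker list, every called list gene and the 3 genes most like each tested member were named. Mylpf, a skeletal muscle gene, was the 1 listed marker called (higher, log2 difference 1.80, limma adjusted p 0.0142). Dok1, Htra2, Eln and the overlapping genes were added after their values were seen. The members and lists were chosen with earlier results of these data known. Alternatives changed the pseudocount, filter, scaling, block, variance trend and library weights, and left out each library. Columns of gene annotation were used for names and positions only.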

Additional observations from a re-analysis of the deposited data

How the results depend on the processing

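No member changed sign under any of the alternatives run for its log2 difference (14 for each tested member and 11 for Loxl4, which had no value under the stricter filter, without the variance trend or with library weights). The changes of filter, block and variance trend cannot move the log2 difference itself, so they are no check of its sign. Leaving out 1 library moved Lox between -3.43 and -1.46, Loxl1 between -2.36 and -1.15, Loxl2 between -2.05 and -1.09 and Loxl3 between -2.46 and -1.25, and all genes called between 2 and 557, with 0 to 29 genes of the pathway lists. The lowest value of each member and both highest counts came without Ang II replicate 3. With library weights, whose estimation stopped before it converged, 522 genes and 27 pathway genes were called, among them Lox (-3.47), Loxl1 (-2.31), Loxl2 (-1.99) and Loxl3 (-2.37). These weights were 0.118, 1.51 and 0.383 for Ang II replicates 1 to 3 and 2.09, 0.707 and 9.96 for Ang II + Tec replicates 1 to 3. The weighted values thus lean on Ang II replicate 2, which had the highest Lox, and on Ang II + Tec replicate 3. Without a filter 3 genes were called. Rescaling by the median of ratios moved the median of all genes from -0.17 to 0.0020 and gave -2.18, -1.42, -1.29 and -1.57 for the 4 members in this order. With mitochondrial transcripts removed and the libraries rescaled, the 4 members were at -2.33, -1.60, -1.45 and -1.72.

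With the replicate number as a block 22 genes were called, beside 21 without it, and the members had adjusted p of 0.118 to 0.12 (limma). The deviations of same-numbered libraries correlated at -0.039, 0.429 and 0.379, and Ang II replicate 1 correlated best with another number (0.212), so the numbers were not read as pairs. The block changed no member's call.

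Signs turned for Lox relative to Col1a1 and Col3a1 (-0.10) and Loxl4 relative to fibroblast markers (-0.27) with a pseudocount of 0.1 (for all members but Lox beside the collagens, these alternatives were chosen after seeing the data), for Ltbp4 (0.14), Aoc2 (0.037) and Rgs5 (0.071) after rescaling, and for Aoc3 (-0.49), Aoc2 (0.045), Upk3b (-0.24) and Cidec (-0.77) with weights. Over the fits that left out 1 library, Ltbp4 ranged from -0.31 to 0.079, Aoc3 from -0.37 to 0.24, Aoc2 from -0.10 to 0.039, Ccn2 from -2.12 to 0.19, Upk3b from -0.061 to 1.29 and Cidec from -0.72 to 1.49. No value with a turned sign passed its threshold, and the cause was not tested. Depth limits Loxl4 most.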
